A study of Mus musculus with 32 samples.

Results

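The anti-HA immunoprecipitate (IP) of neurons that expressed HA-tagged Ago2 was compared with the input RNA of the same cells over every region of the authors' deposited list. The list held 22432 lines. After removal of 32 lines that repeated a position and strand, 22400 regions remained, which are all the CLIP regions of the series and all members of this comparison. Each region carried 1 log2 fold of the HA-Ago2 IP over its input and 1 −log10 p, both the authors' own values, and the same regions carried a second fold over the anti-HA IP of cells that expressed untagged Ago2.

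The study made induced neurons (iNs) from hybrid mouse embryonic stem cells by 10 days of doxycycline induction of a TetO-Ngn2 transgene and concerned the microRNAs of the imprinted Mirg locus, which run from Mir379 to Mir410. All CLIP cells had the control genotype Mirg(fl/+). They expressed exogenous Ago2, either HA-Ago2 or untagged-Ago2, so that the tagged protein was not the endogenous one and both kinds of cell carried an added Ago2. There were 2 libraries each of the HA-Ago2 IP, its input and the untagged-Ago2 IP, crosslinked with ultraviolet light at 400 mJ/cm2. The libraries of the IP were amplified with 18 PCR cycles and those of the input with 9. The authors' lists gave values over the 2 libraries together, so no spread between CLIP replicates could be given, and the read depth behind a fold is unknown. Levels of RNA came from other libraries of control iNs of the same genotype and day, 3 of rRNA-depleted RNA and 3 of small RNA, which were not said to carry the added Ago2. In those RNA libraries (14904735 to 20965472 estimated counts) neuronal markers were present, with Tubb3 at 405 ± 53.2 TPM and Stmn2 at 765 ± 83.4 TPM (SD, n = 3). The stem cell marker Nanog was at 0.0967 ± 0.0702 TPM, the glial marker Gfap at 0.0 TPM in each library, and the fibroblast marker Col1a1 at 0.13 ± 0.208 TPM.

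Argonaute 2 holds a mature microRNA and, through pairing of the microRNA's seed (its bases 2 to 8) with a messenger RNA, brings TNRC6 scaffold proteins and the deadenylation machinery to that messenger. Ultraviolet light crosslinks Ago2 to the RNA it touches, so that a CLIP of Ago2 returns the loaded microRNAs themselves and the messenger sites they pair with, which lie mostly in 3′ untranslated regions. The input of such an experiment reports the RNA present in the lysate, while an IP from cells without the tag reports the RNA that the beads and the antibody retain without a tagged protein.

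The sequences under the highest folds over input included mature microRNAs. They are given 5′ to 3′ with the seed in capitals and were read from RefSeq (GRCm38.p6, of which mm10 is the browser name). Those of the miR-183, miR-96 and miR-182 cluster come first, since Mir182 and Mir183 had the highest folds over input of all regions, and their seeds differ from each other.
miR-182-5p: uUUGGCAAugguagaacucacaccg
miR-183-5p: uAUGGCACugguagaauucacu
miR-96-5p: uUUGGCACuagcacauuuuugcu

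The second set shares the seed AAGUGCU and belongs to the miR-290 to miR-295 and miR-302 clusters, which are known from embryonic stem cells.
miR-291a-3p: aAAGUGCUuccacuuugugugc
miR-294-3p: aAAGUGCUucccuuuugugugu
miR-295-3p: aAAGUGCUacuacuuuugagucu
miR-302b-3p: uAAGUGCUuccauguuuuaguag
miR-302d-3p: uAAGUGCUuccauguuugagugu

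The other microRNAs among the 10 hairpins with the highest folds are miR-301a, miR-125a and miR-541. They are followed by miR-127-3p, which had the highest fold of the microRNAs upstream of the cluster, and by 4 of the most abundant microRNAs in control iNs, which had lower folds or no region. All have other seeds.
miR-301a-3p: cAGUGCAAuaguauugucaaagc
miR-125a-5p: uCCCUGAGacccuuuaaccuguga
miR-541-5p: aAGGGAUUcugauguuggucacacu
miR-127-3p: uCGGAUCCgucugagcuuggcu
miR-16-5p: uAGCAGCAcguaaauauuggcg
miR-137-3p: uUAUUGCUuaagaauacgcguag
miR-335-5p: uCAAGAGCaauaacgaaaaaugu
miR-382-5p: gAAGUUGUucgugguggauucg

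The deposited regions were short windows within the hairpins. In the hairpin sequences that follow, the part that the region with the highest fold covered is in capitals, which shows that each region lay within the mature arm or covered it.
Mir182: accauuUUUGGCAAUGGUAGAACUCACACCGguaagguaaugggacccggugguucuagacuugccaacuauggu
Mir183: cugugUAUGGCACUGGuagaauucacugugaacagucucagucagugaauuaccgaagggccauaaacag
Mir96: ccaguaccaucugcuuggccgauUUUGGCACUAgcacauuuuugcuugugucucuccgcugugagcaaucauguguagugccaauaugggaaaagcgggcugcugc
Mir302b: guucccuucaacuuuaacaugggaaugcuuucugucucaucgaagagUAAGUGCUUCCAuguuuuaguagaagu

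Most regions had a log2 fold above 0 over input, and fewer had one above 0 over the IP of untagged Ago2. The log2 fold over input was above 0 in 96.3% of the 22400 regions, with a median of 2.22. The log2 fold over untagged Ago2 was above 0 in 42.9% of them, with a median of −0.13. The regions are the authors' peaks, chosen by a rule not given in the sources used here. The shares over input therefore describe these peaks and not the RNA of the cells at large. A region is named called over input where the log2 fold was at least 3 and the −log10 p at least 3, a rule applied to the authors' values. It took in 4347 regions, 19.4% of all, where a log2 fold of at least 1 with the same p took in 16121 (72.0%). The same rule against untagged Ago2 took in 822 regions (3.67%), or 1428 (6.38%) at a log2 fold of at least 1, and 701 regions passed over both references (3.13%). Both folds use the same HA-Ago2 IP libraries, so their values are set side by side and were not correlated.

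Of the 4347 regions called over input, 701 (16.1%) were also called over untagged Ago2. At the other end, 2318 (53.3%) had a log2 fold over untagged Ago2 under 1, and 1237 (28.5%) had one under 0. A value under 0 is lower with the tag than without it in the authors' scaling of the libraries, which is not given here. The remaining 1328 had a log2 fold of at least 1 over untagged Ago2 without passing the rule. The share of regions with a log2 fold of at least 1 over untagged Ago2 stood at 8.55% where the log2 fold over input was from 1 to 2 and at 13.2% from 2 to 3. It was 35.8% from 3 to 4, 63.2% from 4 to 5, 83.3% from 5 to 6 and 90.5% at 6 or more. Among the 126 regions with a log2 fold of 6 or more over input, 8 still had a log2 fold under 0 over untagged Ago2.

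The −log10 p over input gave a different order. It had an upper limit of 400, which 288 regions reached. Of these, 94 were called over input and 22 over both references, and 68 of the 94 (72.3%) had a log2 fold under 1 over untagged Ago2. Regions also came with tied folds. The commonest value, a log2 fold of 2.4 over input, was shared by 704 regions, and 22400 regions had 3936 distinct folds.

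**Figure D1:**
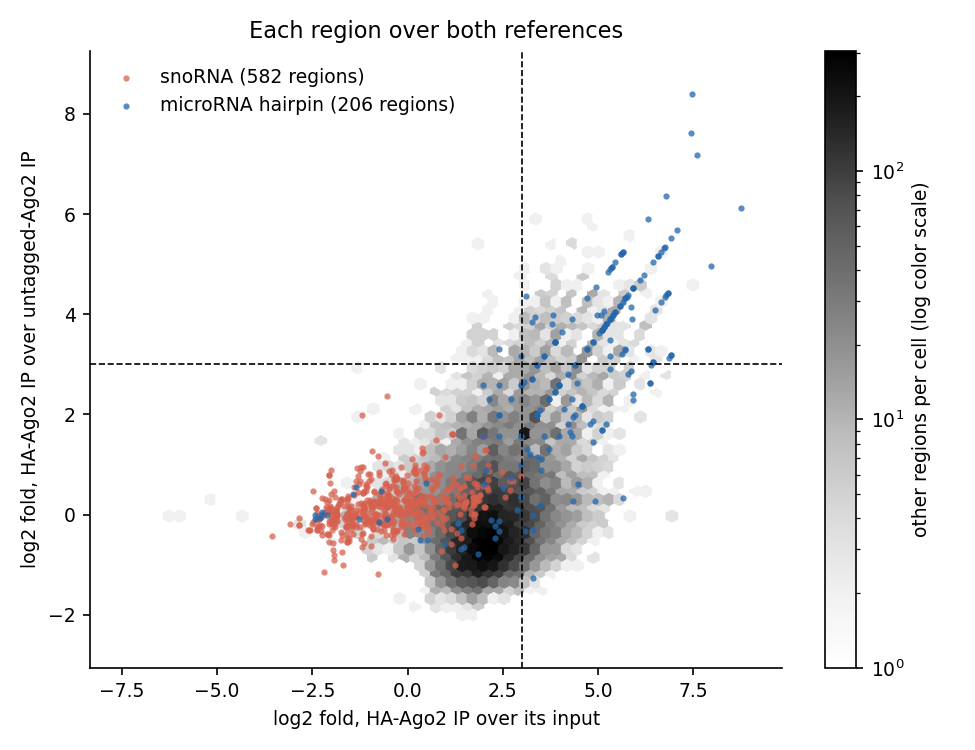
Log2 fold of each region over its input (horizontal axis) and over the untagged-Ago2 IP (vertical axis), with dashed lines at the threshold of 3 on each. Hexagons count regions of the other RNA classes on a log color scale. Points are regions in microRNA hairpins, which reach log2 folds of 8.75 and 8.39, and in snoRNAs, none of which reaches 3 over input. Both axes share the HA-Ago2 IP libraries.

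The RNA classes differed in how often their regions were called. MicroRNA hairpins had 206 regions, of which 146 (70.9%) were called over input and 82 over both. Regions in protein-coding genes made up 87.9% of the list, and 3871 of their 19680 (19.7%) were called over input, near the 19.4% of all regions. Of those 3871, 554 (14.3%) were called over both references. Genes of long noncoding RNAs held 1105 regions, 108 of them called (9.77%) and 25 over both. Regions outside annotated genes were called in 152 of 379 (40.1%), with 38 over both.

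The structured small RNAs behaved otherwise. None of the 582 regions in snoRNAs, which guide the modification of ribosomal and spliceosomal RNA, was called over input, and 63.7% of them had a log2 fold below 0. Their median log2 fold was −0.43 over input and 0.15 over untagged Ago2. The lowest log2 fold in the class was −3.56, and a region in Snora7a stood at −2.86 over input and −0.21 over untagged Ago2. None of 27 regions in other small RNAs was called, among them Rpph1, the RNA of ribonuclease P, with 2 regions at a log2 fold of −1.76 and −0.72. The 9 regions in Rmrp, the RNA of the related ribonuclease MRP, lay between −0.77 and 0.55. The 4 regions in Rn7sk, which binds and holds back a transcription elongation factor, lay between −0.64 and −0.4.

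Spliceosomal and other snRNA genes, tRNAs, 5S ribosomal RNA genes and pseudogenes did contain called regions, and none of these was called over untagged Ago2. Of all regions, 19.4% were called over input, and 16.1% of those were also called over untagged Ago2. The shares called over input in snRNA and rRNA genes were near that of all regions. Pseudogenes had a lower share, with 15 of 174 regions called (8.62%). In tRNA and rRNA genes so few regions were called that the absence over untagged Ago2 is not a result about them. In snRNA genes 24 of 136 regions were called over input (17.6%), and 22 of the 24 had a log2 fold under 1 over untagged Ago2. The highest was in the predicted gene Gm22359, at 5.65 over input and 1.07 over untagged Ago2. Rnu3b1, which encodes the nucleolar RNA U3 and is annotated among the snRNAs, had a region at 4.21 over input and 1.06 over untagged Ago2, so a snoRNA by function was called although no region annotated as snoRNA was. In tRNA genes 5 of 17 regions were called, the highest in the glycine tRNA gene n-TGgcc9 at 3.57 over input and −1.79 over untagged Ago2. The 5S ribosomal RNA copy n-R5s162 had a region at 4.67 over input and 0.36 over untagged Ago2, and rRNA genes had 4 of 21 regions called. Rn18s-rs5, annotated as a pseudogene of ribosomal RNA, had 57 regions with a median of 2.69 over input and 0.26 over untagged Ago2, of which 2 were called. These genes have near-identical copies, so that reads cannot be placed on 1 copy with certainty.

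**Figure D2:**
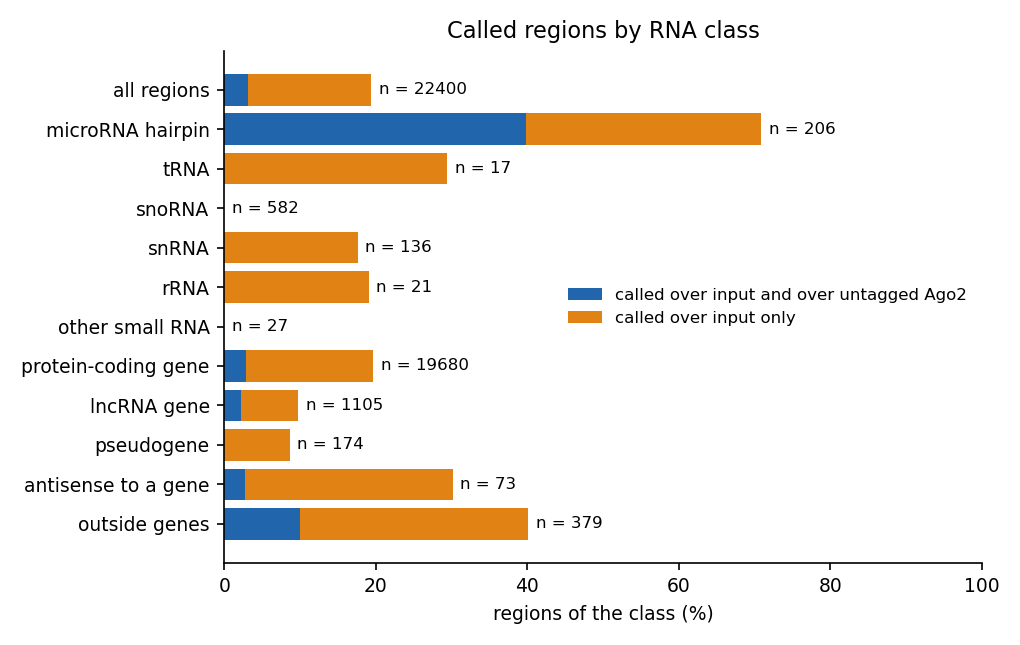
Percent of the regions of each RNA class that were called over input (log2 fold of at least 3 and −log10 p of at least 3), split into those also called over untagged Ago2 (blue) and those that were not (orange); n is the number of regions. MicroRNA hairpins stand at 70.9% and snoRNAs at 0.0%, against 19.4% for all regions.

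The microRNA hairpins with a region numbered 160 of the 1228 annotated. At least 1 region was called over input in 112 of them (70.0%), and over both references in 60. A further 52 were called over input only and 48 had no called region. In 128 of the 160 the region with the highest fold overlapped a mature arm, where 147 of them had an arm in the sequence table. Values given for a hairpin are those of its region with the highest fold over input, and mature levels are CPM, each library's mature counts scaled to the same total, in the small RNA libraries of control iNs.

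The 3 hairpins of the miR-183, miR-96 and miR-182 cluster, which lie together on chromosome 6, were among the 4 highest over input, with Mir182 and Mir183 first and Mir96 after Mir291a. Mature miR-182-5p was at 208000, 200000 and 201000 CPM in the 3 libraries, the highest of all. The region in Mir182 (chr6:30165962-30165986, minus strand) had a log2 fold of 8.75 over input, which is 431-fold, and of 6.12 over untagged Ago2. Mature miR-183-5p was at 92300, 84500 and 88800 CPM, and the region in Mir183 (chr6:30169722-30169732) stood at 7.95 over input and 4.96 over untagged Ago2. Mature miR-96-5p was at 13900, 16300 and 15100 CPM, and the region in Mir96 (chr6:30169519-30169528) stood at 7.48 over input and at 8.39 over untagged Ago2, the highest fold over untagged Ago2 in the list.

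The microRNAs with the seed AAGUGCU had folds in the same range at far lower levels of the mature RNA. All 5 hairpins whose region lay on an arm with that seed were called over both references, with log2 folds of 6.31 to 7.59 over input and 5.52 to 7.61 over untagged Ago2. Mature miR-302b-3p was at 285, 281 and 195 CPM, and its region (chr3:127545275-127545286) had log2 folds of 7.44 and 7.61. Mature miR-295-3p was at 514, 417 and 412 CPM, with log2 folds of 6.92 and 5.52 at Mir295. Mature miR-291a-3p was at 0.548, 2.7 and 0.493 CPM, and the region on its arm in Mir291a had log2 folds of 7.59 and 7.18. The other arm of that hairpin, miR-291a-5p, was at 180, 170 and 99.4 CPM. Some members of this family, such as miR-302b-3p and miR-302d-3p, differ by few bases, so the division of reads among those is uncertain in both assays. The stem cell markers Pou5f1 (0.95, 1.24 and 0.66 TPM) and Zfp42 (1.36, 0.96 and 0.86 TPM) were low in the RNA libraries of control iNs. Lin28a, another pluripotency gene, was at 7.46, 9.22 and 6.87 TPM there. Their level in the CLIP cells was not measured here, and the part of residual stem cells in these values was not tested.

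Other seeds recurred among the hairpins. The seed AUUGCAC, which miR-25, miR-32, miR-92, miR-363 and miR-367 share, was under the best region of 7 hairpins, all called over input at log2 folds of 4.35 to 5.92 and 4 of them over both. The seed AAAGUGC of miR-17, miR-20a and miR-106 was under 4 hairpins, 3 of them called over both. In the miR-17 to miR-92 cluster and its paralogs, a list of growth-associated microRNAs, 11 of 15 hairpins had a region, 10 were called over input and 8 over both, with a median best log2 fold of 5.31. For comparison, 112 of all 160 hairpins with a region (70.0%) were called over input and 60 over both.

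Among the microRNAs of the imprinted Dlk1-Dio3 domain on chromosome 12, the cluster from Mir379 to Mir410 had a region in 15 of 38 hairpins, 8 of them called over input and 5 over both. The highest was Mir541 with log2 folds of 6.82 over input and 4.42 over untagged Ago2 and with miR-541-5p at 6500, 5900 and 6550 CPM. Mir485 stood at 6.57 and 5.16. Mir300 stood at 6.19 and 4.79. Of the 21 hairpins upstream of the cluster, from the start of Meg3 to Mir379, 10 had a region (2 of them inside Meg3), 9 were called over input and 3 over both. Mir127, which lies opposite the Rtl1 gene, led these with log2 folds of 6.66 and 5.25 and with miR-127-3p at 22700, 24700 and 25800 CPM. The list of brain-enriched microRNAs had a region in 12 of 24 hairpins, 10 of them called over input and 3 over both. Of all 160 hairpins with a region, 112 (70.0%) were called over input and 60 over both. The cluster was below that share over input. Over both references these short lists are near the share of all hairpins, so those counts are not a result about them. Mirg, the host transcript at the cluster's far end, was at 20.2 ± 3.28 TPM (SD, n = 3), and all 6 regions that overlap it lay in hairpins, so no region was assigned to the transcript itself.

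High abundance did not always go with a high fold. Among hairpins whose more abundant arm was at 1000 CPM or more, 53 of 103 had a region, 45 were called over input and 27 over both. Below that level 96 of 465 had a region and 62 were called. For 147 mature microRNAs, the highest fold over input of a hairpin was set against the CPM of its more abundant arm. The region with that fold overlapped the more abundant arm in 101 of the 160 hairpins with a region. Spearman's rho was 0.27 and Pearson's r on log10(CPM + 1) was 0.31. These are given as a description, across microRNAs that share the same libraries. Mature miR-382-5p, at 40400 ± 732 CPM (SD, n = 3), and miR-103-3p, at 29100 ± 395 CPM, had no region on their hairpins. None of the 12 let-7 hairpins had a region, with let-7c-5p at 5190 ± 150 CPM. Reads of a mature microRNA with more than 1 hairpin, such as miR-103-3p with 2, cannot be placed on 1 hairpin with certainty. A missing region for such a microRNA is not a result about its loading. Mir137 was just past the threshold at 3.06 over input and 2.65 over untagged Ago2, with miR-137-3p at 30300 ± 588 CPM.

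Enrichment over input without a matching difference from untagged Ago2 occurred in hairpins too. Mir9-2 had a region at 3.29 over input and −1.27 over untagged Ago2 that overlapped no mature arm of that brain-enriched microRNA. Mir2861 and Mir3960 shared a region at 5.65 over input and 0.33 over untagged Ago2, also off any mature arm. Mir125b-1 had a region at 0.32 over input that was not called, with miR-125b-5p at 14600 ± 1330 CPM. That region also overlapped no mature arm, so it gives no value for the mature microRNA. At the low end, Mir1843b and Mir3068 stood at −2.43 and −2.11 over input.

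**Figure D3:**
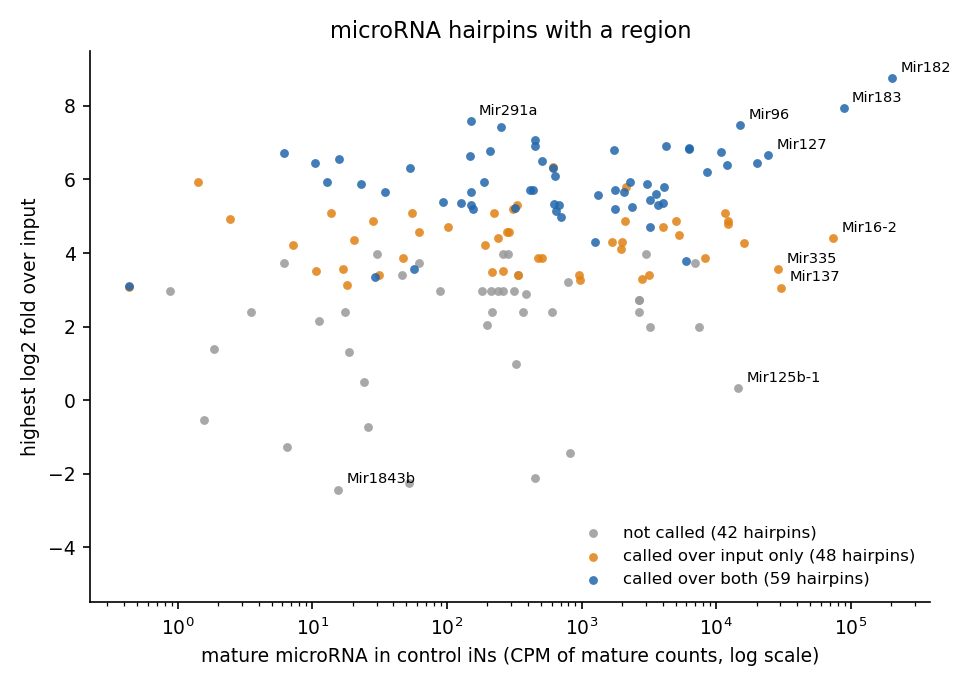
Highest log2 fold over input of each hairpin with a region and a named mature microRNA (vertical axis) against the mean level of its more abundant arm in 3 control iN small RNA libraries, in CPM on a log axis. Colors mark hairpins called over both references, over input only, or not called. Mir182 and Mir183 lie highest on both axes. Mir291a lies at 7.59 with its more abundant arm, miR-291a-5p, at 150 CPM, while its region lies on the arm of miR-291a-3p.

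Protein-coding genes with a region numbered 5305. In 1975 of them (37.2%) at least 1 region was called over input and in 214 (4.03%) over both references. The regions called over both were concentrated, with 193 of 554 (34.8%) in 10 genes. Zbtb7a, which encodes a transcriptional repressor, had 68 regions, all called over input and 47 over both, with log2 folds of up to 6.95 over input and 5.97 over untagged Ago2. Zfp367, a zinc finger gene, had 29 regions called over input and the same 29 over both. Igf2, the imprinted growth factor, had 30 called over input and 29 over both, at 1.05, 0.68 and 0.95 TPM in the RNA libraries. H19, the imprinted long noncoding RNA beside Igf2, had 24 regions called over both, with log2 folds of up to 6.09 over input and 6.71 over untagged Ago2, at 1.65, 2.32 and 1.32 TPM. Its microRNA hairpin Mir675 had 1 further region at 3.11 and 4.37. Neurod1, a neurogenic transcription factor, had 25 regions called over input and 20 over both. Btg2, an antiproliferative gene, had 31 and 11. Regions that touch or overlap on the same strand are counted singly, so these are not counts of separate sites. Joined into blocks, those called over input numbered 40 in Zbtb7a, 11 in Zfp367 and 15 in Igf2. In H19, Neurod1 and Btg2 there were 6, 10 and 23 blocks.

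The highest folds in protein-coding genes were in Gigyf1, a partner in translational repression. Its region at chr5:137527688-137527695, 243 bases before the annotated gene end, stood at 7.76 over input and 3.03 over untagged Ago2. Tnrc6a had a region at chr7:123194194-123194212 at 7.57 over input and 4.58 over untagged Ago2. Slc22a22, described below, came next with a region at 7.50 over input and −0.71 over untagged Ago2. Ccng2, the gene of cyclin G2, had one at 7.42 over input and 2.31 over untagged Ago2. Epha4, a receptor of axon guidance, reached 7.01 over input and 3.61 over untagged Ago2 in 3 regions of 1 block.

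Genes of the microRNA pathway were called more often than all genes. In that list 16 of 19 genes had a region, 11 (68.8%) had one called over input against 36.5% of all genes with a region, and 7 (43.8%) had one called over both against 3.91%. The median of their best log2 fold over input was 4.18, against 2.88 over all genes with a region. Tnrc6a, the scaffold that Ago2 recruits, had 45 regions (22 blocks) called over input and 27 regions over both. Its paralog Tnrc6b had 18 and 5. Tnrc6c, the other paralog, had 14 and 0, with log2 folds of at most 2.58 over untagged Ago2. Dicer1, which cuts the hairpin precursors, had 9 and 4, and Ago1 had 10 and 2. Lin28a, which binds the let-7 precursors, had 4 and 2. The list was compiled with earlier results of these data known and gets no test.

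Ago2 itself had 15 regions, 7 of them called over input. The highest was at 5.21 over input and 0.80 over untagged Ago2 (chr15:73106923-73106971, minus strand), and the 7 lay between 0.15 and 0.82 over untagged Ago2, so none was called there. Ago2 was at 29.7, 34.0 and 31.4 TPM in the RNA libraries. Those libraries were not labelled as carrying the exogenous Ago2, and reads from the added and the endogenous copy cannot be told apart here.

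Trim71, a ubiquitin ligase and known let-7 target, had 12 regions in its annotated interval, 10 called over input (4 blocks) and 9 over both. Another 29 regions lay 13 to 3872 bases past the annotated end on the same strand, 27 of them called over input and 21 over both. Ankrd52 likewise had 28 regions 326 to 1412 bases past its end, 27 of them called and 9 over both. These 57 regions count as outside genes. Without them, 98 of 322 regions outside genes were called (30.4%) and 8 over both.

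The lists of neuronal, cytoskeletal, ribosomal and histone genes had no gene called over both. With 3.91% of all genes called over both, fewer than 1 gene would fall in each of these short lists at the background share, so the absence is not a result about them. Over all genes with a region, 36.5% had one called over input, and 19.1% of their regions were called. Of 24 pan-neuronal genes, 20 had a region and 3 a called one (Nefm, Nefl and Celf4), with 7 of 207 regions called (3.38%). Of 22 cytoskeleton and transport genes, all had a region and 9 a called one, with 29 of 622 regions called (4.66%). Map1b, a microtubule-associated protein gene at 610, 826 and 760 TPM, had 199 regions, 11 of them called at log2 folds of −1.02 to −0.32 over untagged Ago2. Of 26 cytosolic ribosomal protein genes, 16 had a region and 7 a called one, with a median best log2 fold of −0.08 over untagged Ago2. Of 13 replication-dependent histone genes, 12 had a region and 7 a called one, and the median of their best log2 fold over untagged Ago2 was −0.66. H4c4 had a region at 4.33 over input and −0.23 over untagged Ago2, and the 5 called regions of H1f2 lay between −1.10 and −0.61 over untagged Ago2.

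Lists with single genes over both references were the axon guidance genes, with Epha4, and the neurogenic transcription factors, with Neurod1. In the first, 10 of 26 genes had a region, 6 were called over input and 1 over both. In the second these counts were 16 of 21, 10 and 1. Among RNA-binding protein genes, 21 of 26 had a region, 12 a called one and 3 one called over both, which were Mbnl1, Nova2 and Ptbp1. Mbnl1, a splicing regulator, had 8 regions, all called over input and 7 over both. The glutamatergic synapse list (15 of 27 with a region, 6 called), the voltage-gated ion channels (7 of 21, 2 called) and the sterol synthesis genes (11 of 18, 4 called) had 40.0%, 28.6% and 36.4% of their genes with a region called over input, beside 36.5% over all genes. They had none over both, which at 3.91% over all genes is near the background.

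The lists of other cell types included 2 genes called over both. Of 12 pluripotency genes, 8 had a region, 4 were called over input, and Lin28a and Fgf4 over both. Fgf4, a growth factor of stem cells, had 2 regions at up to 5.31 over input and 3.90 over untagged Ago2, and was at 0.0 TPM in each control iN RNA library. Of 11 glial genes, Slc1a3 alone had a region, at 3.21 over input and −0.59 over untagged Ago2. Of 10 fibroblast genes, 5 had a region and none was called over input. So few genes had a region in these lists that the counts are not a result about them. The makeup of the CLIP cells was not measured in these files, and its part in these values was not tested.

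A separate set of genes carried many regions called over input and none over both. Scrt1, a neural transcriptional repressor, had 30 regions, all called over input, with log2 folds over untagged Ago2 from 0.28 to 2.87. Ncl, which encodes nucleolin, had 27 of 94 regions (6 blocks) called over input at up to 4.26, with log2 folds from −0.89 to 0.07 over untagged Ago2. Hsp90ab1, a chaperone gene, had 16 called regions (5 blocks) at −0.81 to −0.28 over untagged Ago2. Son and Hnrnpu, both nuclear RNA-binding protein genes, had 14 and 12, with log2 folds of at most 0.15 and −0.45 over untagged Ago2. Sox2 had 67 regions, 11 of them (2 blocks) called over input at up to 4.06 and at −0.95 to −0.70 over untagged Ago2. It was at 0.03, 0.02 and 0.11 TPM in the RNA libraries. The interval of Sox2 lies inside that of Sox2ot, a long noncoding RNA gene whose strand was not known here, and which was at 0.34, 0.06 and 0.02 TPM.

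**Figure D4:**
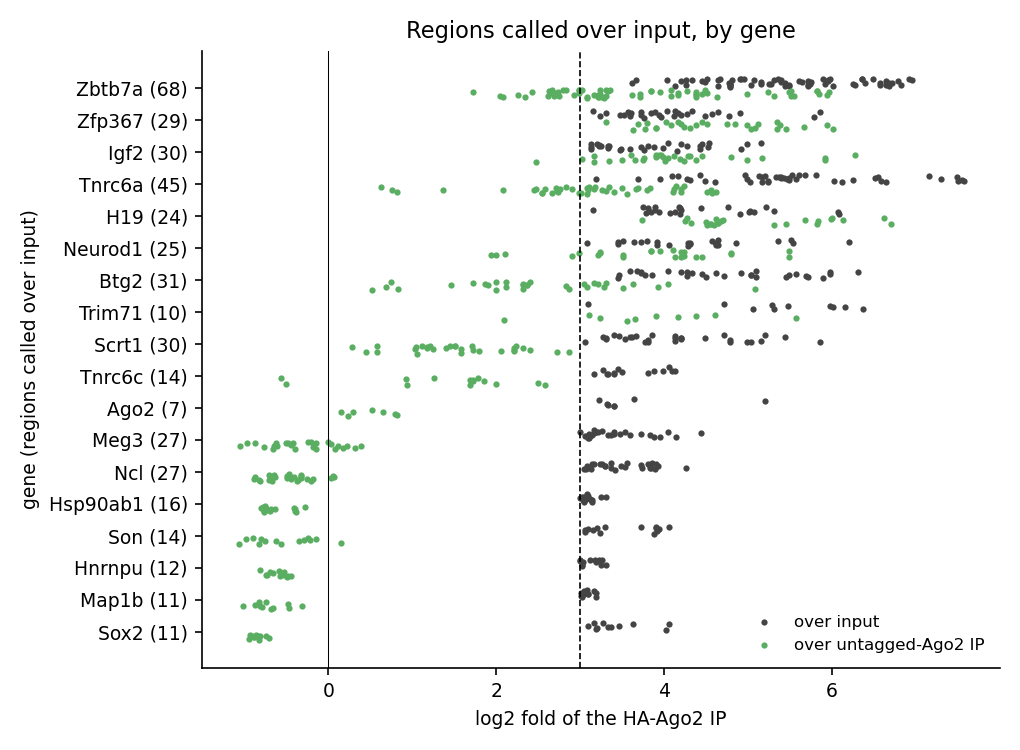
Log2 folds of every region called over input in 18 genes, over input (dark points) and over the untagged-Ago2 IP (green points), with the number of such regions in brackets and a dashed line at 3. In Zfp367 and H19 all green points lie above 3, and in Hsp90ab1, Hnrnpu, Map1b and Sox2 all lie below 0.

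In the Dlk1-Dio3 domain 6 of 8 genes had a region and none had one called over both. With 3.91% of all genes called over both, the absence is near the background and not a result about so few genes. Over input, 44 of 331 regions in these genes were called (13.3%). The shares were 19.4% of all regions and 9.77% of those in lncRNA genes. The 3 genes with a region called over input were Meg3, Rian and Rtl1. Rtl1 was matched without strand to regions on the plus strand, opposite to the strand on which it is known to lie. Meg3, the maternally expressed RNA of the imprinted domain, was at 238, 307 and 370 TPM and had 256 regions. Of these 27 (16 blocks) were called over input, the highest at 4.44, and the 27 lay between −1.06 and 0.39 over untagged Ago2. Rian, the next transcript of the domain, was at 569, 643 and 657 TPM, with 4 of 44 regions called and none over both. Malat1, a nuclear RNA, had 299 regions from −1.33 to 2.37 over input and none called. Neat1, another nuclear RNA, had 8 of 21 regions called, with a highest log2 fold of 4.72 over input and 0.31 over untagged Ago2. The interval of Rtl1 held 27 regions on the plus strand, 13 of them (3 blocks) called, at −0.71 to −0.22 over untagged Ago2. Rtl1 was at 0.03, 0.07 and 0.02 TPM.

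Elsewhere, Snhg11, a host RNA of snoRNAs, had 7 regions called over input at up to 5.14, with 1.73 over untagged Ago2 at the highest. In protein-coding genes, the lowest values over untagged Ago2 among called regions were −1.76 in Cnpy1, −1.65 in the histone gene H1f5 and −1.54 in Rnf168, at 4.40, 3.22 and 3.57 over input. Antisense to a gene lay 73 regions, 22 of them called (30.1%) and 2 over both. None of the 15 mitochondrially encoded genes had a region.

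Single sites with little or no excess over untagged Ago2 also stood among those with the highest values over input. In 21 protein-coding genes a called region reached the limit of −log10 p over input. At the region with the highest fold among these, 17 of the 21 genes had a log2 fold under 1 over untagged Ago2, 6 had one under 0, and 2 were called over untagged Ago2. Of all called regions in protein-coding genes, 54.6% were under 1, 29.5% under 0 and 14.3% called over both. The counts of 6 and 2 are near those shares and are not a result about these genes. The genes named next are among the 10 of the 21 with the highest folds, since p is tied at the limit. In Slc22a22, an organic anion transporter gene at 0.0 TPM in each library, the region at the limit (chr15:57433207-57433241) stood at 6.58 over input and −0.67 over untagged Ago2. The adjoining region at chr15:57433242-57433259 stood higher over input, at 7.50 and −0.71, with a −log10 p of 110 over input. Il31ra, a cytokine receptor gene at 0.04, 0.19 and 0.02 TPM, had one at 6.4 and −0.39. Gphn, which encodes the synaptic scaffold gephyrin, had one at 6.12 and 0.50 (chr12:78350917-78350924), with a −log10 p of 5.02 over untagged Ago2. Wdr92 had one at 5.18 and −0.11, and Col6a6 one at 4.51 and −0.27. The 2 genes called over untagged Ago2 were Mast1 at 6.17 and 4.64 and Morf4l2 at 5.52 and 3.26. Outside genes, chr7:110059784-110059789 stood at 7.03 and −0.04, and chr1:113904150-113904158 at 6.68 and −0.34.

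Regions called over both references lay nearer to gene ends than those called over input only or over neither. For 16032 regions in protein-coding genes of known strand, the median distance from the region to the annotated gene end was 7221 bases in regions called over neither reference, 3754 bases in those called over input only and 1512 bases in those called over both. Within 3000 bases of the end lay 29.2%, 44.2% and 77.3% of them. Within 500 bases of the gene start lay 11.6%, 8.55% and 0.0%. These regions came from 3692, 1544 and 170 genes in the same order, so some genes count many times. The 86 regions called over untagged Ago2 only, in 42 genes, had a median of 1701 bases to the end. Of these 86, 65.1% lay within 3000 bases of it. Over all RNA classes, 381 regions lay in windows from 250 bases before to 50 after a gene start. Of these, 57 were called over input (15.0%) and 5 over both. Among the 16032 regions in protein-coding genes, 343 lay in such windows, with 41 called over input only and 0 over both. Distances run along the genome and include introns, since exon and untranslated-region coordinates were not used here.

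**Figure D5:**
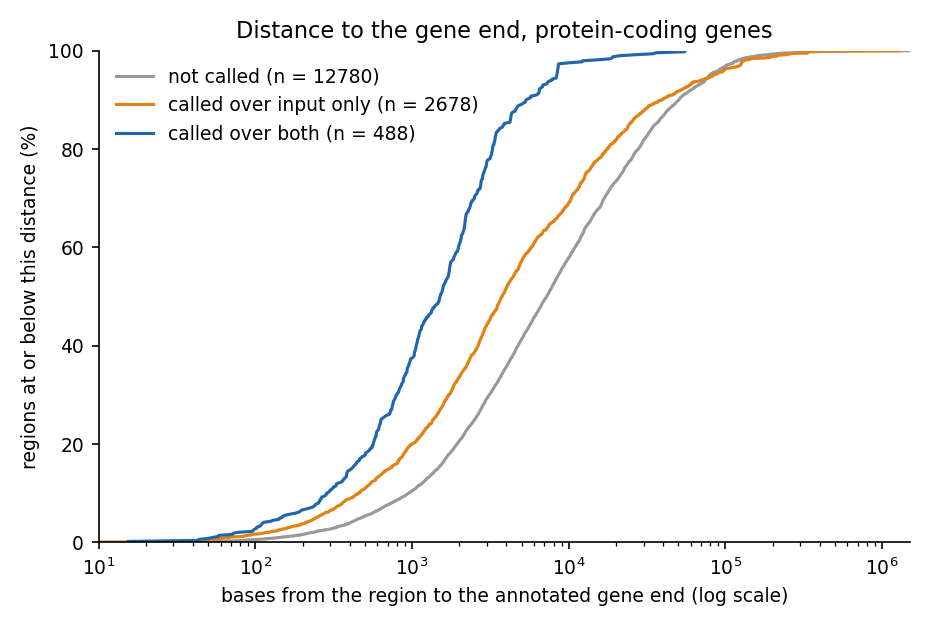
Cumulative percent of regions in protein-coding genes by distance to the annotated gene end, on a log axis, for regions not called over either reference, called over input only and called over both. At 3000 bases the curves stand at 29.2%, 44.2% and 77.3%.

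Called regions were a smaller share of the listed peaks in strongly expressed genes. How the level of a gene bears on which peaks were listed was not tested. With protein-coding genes split into 4 groups of 1321 or 1322 by their mean TPM in the 3 control iN RNA libraries, 30.4% of 2737 regions were called over input in the lowest group, up to 5.84 TPM. In the highest group, from 35.7 TPM, 10.6% of 8629 regions were called. The share called over both was 6.61% in the lowest group and 0.707% in the highest, and the median log2 fold over untagged Ago2 was 0.44 in the lowest and −0.39 in the highest. The median host level over the 3 libraries ranged from 11.1 to 12.8 TPM for 214 genes with a region called over both, from 15.2 to 17.8 TPM for 1754 called over input only and from 14.2 to 16.8 TPM for 3319 with no called region.

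The authors' deposited table of regions matched to microRNAs of the cluster named 874 of the 22400 regions. Of these, 375 (42.9%) were called over input and 123 (14.1%) over both. Among the other 21526 regions, 3972 (18.5%) were called over input and 578 (2.69%) over both. The median log2 fold over untagged Ago2 was 1.58 in the matched regions and −0.18 in the others. The rule by which the authors chose the matched regions was not given in the sources used here, so the difference is a description of that table.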

How the data were processed

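The authors' deposited lists gave, per region, a log2 fold and a −log10 p of the HA-Ago2 IP over its input and over the untagged-Ago2 IP. Per the submitters' processing notes, the build was mm10 and the tools included SAMtools, DESeq2, RSEM (1.2.30), STAR (2.4.1d) and cutadapt (1.4.2), with no role given. The peak caller and how replicates were combined are not given in the sources used here, and PCR duplicates may be in the folds. Per the file headers, the authors' RNA files gave TPM and estimated counts (RSEM) per gene, and their small RNA files estimated counts per mature microRNA. Names of mature microRNAs came from matching each accession's counts to a signal column in the authors' deposited tables, which holds mean normalised counts over libraries, with a relative tolerance of 1e-08 (828 of 1907 accessions, 99.99% of mature counts, 1325353 to 1532263 per library).

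Regions were assigned by 1 base of overlap on the same strand to RefSeq genes of GRCm38.p6, small RNAs first, with Python 3.11.15 and pandas 2.3.3. Strand was used where a sequence table gave it, and 4717 regions were assigned to a gene without it. The assignment was tested on simulated regions. Only gene intervals were used, so introns, exons and untranslated regions were not separated, the planned seed search in 3′ UTR regions was not analysed here, and its naming rule (10 regions with the highest −log10 p) was applied to protein-coding genes, with ties at the upper limit ordered by fold. Named regions were otherwise the highest folds per class, the lowest over untagged Ago2 among called ones, and up to 4 genes per list; genes with the most called regions, and the paragraph on Sox2, Rtl1 and single hairpins such as Mir2861, were chosen after their values were seen. Members and lists were chosen with earlier results of these data known. No test was run, since each region had 1 value. TPM and CPM are means ± SD over 3 libraries.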

Additional observations from a re-analysis of the deposited data

How the results depend on the processing

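The number of regions called over input was 4347, and stayed within 1.5 times of that with a −log10 p of at least 5, with lines as deposited, with regions of at least 20 bases and with touching regions merged. It was 16121 with a log2 fold of at least 1 and 21580 with any log2 fold above 0. Just below the threshold, 685 regions had a log2 fold of 2.9 to 3, and 403 lay between 3 and 3.1. The number called over input and not over untagged Ago2 was 3646 (83.9%). It was 3645 with regions matched by 1 base of overlap, 2318 where that meant a log2 fold under 1 over untagged Ago2, 1237 where it meant one under 0, and 14758 of 16121 with a log2 fold of at least 1 for both references. With coding genes placed before small RNAs, 81.5% of 54 hairpin regions were called. With touching regions merged, chosen after seeing the data, 20.3% of protein-coding and 14.7% of lncRNA regions were called. All other alternatives for the classes of hairpins, snoRNAs, protein-coding genes, lncRNAs and regions outside genes stayed within the 95% exact binomial interval of the share (counting error only), as did the shares by host level with each RNA library alone. Placing coding sequence before 3′ UTRs and the 3 alternatives of the seed search were not run. Leaving out a CLIP library was not possible with combined values. No paired analysis was possible because the deposited lists hold 1 value per region over both replicates. The depth per region is unknown, so a region not called is not shown to be free of Ago2.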
